A study of Danio rerio with 10 samples.

Results

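Solute carriers that move organic ions, sugars, monocarboxylates, phosphate, sulfate and chloride across cell membranes were followed in AB zebrafish that carry human TPM3. The members were the genes named as part of the SLC2, SLC5, SLC12, SLC13, SLC16, SLC22, SLC26, SLC34 or SLCO families, with the carnitine importer slc22a5 left out by the rule. Among the 32265 genes with expression values 121 matched by name, and 105 of these reached an FPKM (fragments counted per kilobase of a transcript and adjusted for library size, so that levels can be compared between genes) of at least 1 in any of the 7 conditions. Over the whole series 21160 genes reached that level.

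TPM3 codes for slow-muscle tropomyosin, an actin-binding protein of the thin filament, and the study compared the wild type protein with the E151A and E151G changes as models of congenital myopathy. The groups were adult muscle at 6 months from TPM3(WT), TPM3(E151A) and TPM3(E151G) fish, with 2 libraries each, and embryos labelled as whole and 2 days old from the same genotypes, with 1 library each. A further embryo library came from TPM3(E151G) embryos in L-carnitine, at 10 µM by the study's methods. All groups, the controls included, carry a human TPM3 transgene driven by an MLC2 promoter with a green fluorescent heart reporter, so no group is free of overexpressed tropomyosin. The level of the human transgene was not analysed here. The extraction protocol and the study's text write of muscle, and the treatment protocol in the labels runs past the labelled age, so the tissue and age of the embryo libraries are as labelled and unsettled.

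Transport by these families falls into a few kinds. SLC2 carriers let glucose and related sugars pass down their gradient, while SLC5, SLC13 and SLC34 carriers use the sodium gradient to draw in glucose, monocarboxylates, vitamins, sulfate, dicarboxylates or phosphate. SLC12 carriers move chloride with sodium or potassium, SLC26 carriers exchange anions, SLC16 carriers move lactate and other monocarboxylates, and SLC22 and SLCO carriers take organic cations and anions into cells for clearance. Many of them line the tubule of the vertebrate kidney. In muscle the best known are the lactate carriers slc16a1 and slc16a3 and the insulin-responsive glucose carriers.

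For adults the 2 libraries of a genotype had been combined into 1 FPKM before deposit, and each embryo condition had 1 library. No spread between replicates could therefore be computed, and every difference below is a value without a replicate check or a test. Differences are given as the log2 ratio of FPKM + 1, which understates the change of low genes, and a gene counted as apart when the ratio reached 2-fold (a log2 ratio of 1 either way). The share of all genes past that limit stands beside the count of members in each comparison, and counts of families and of marker lists are to be read against the same share. An FPKM at the floor of the tables is called listed at 0, and such a value serves as no reference for a fold.

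The libraries differed beyond the carriers. FPKM over all genes summed to 712329, 759381 and 1404367 in adult TPM3(WT), TPM3(E151A) and TPM3(E151G), and mitochondrial genes took 25.9%, 36.2% and 47.6% of it. The embryo sums lay between 575410 and 739917, with 13.1% to 15.4% mitochondrial. Muscle markers summed to between 35983 and 59860 FPKM in all 7 conditions. Oocyte markers summed to 3757, 885 and 756 FPKM in adult TPM3(WT), TPM3(E151A) and TPM3(E151G), and testis markers to 77.6, 280 and 13.1, so germ-line markers were also measured in the adult muscle samples. In such mixed samples fewer cells of a type and less RNA per cell cannot be told apart.

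In the TPM3(WT) controls the carriers were mostly low. FPKM reached 1 for 72 members in adult muscle and 64 in embryos, 43 of them in both, and 32 reached it in every condition. Summed over the members, FPKM was 423, 524 and 1480 in adult TPM3(WT), TPM3(E151A) and TPM3(E151G). The 4 embryo sums were 351, 306, 287 and 346 in TPM3(WT), TPM3(E151A), untreated TPM3(E151G) and TPM3(E151G) with L-carnitine. The members thus took 0.0593% of the FPKM sum in the adult controls and 0.105% of it in adult TPM3(E151G), while the embryo shares lay between 0.0388% and 0.0610%.

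The leading carrier differed between the stages in 7 of the 9 families. In adult TPM3(WT) muscle the highest member of all was slc16a3, the lactate exporter of glycolytic fibres, at 102 FPKM. It was followed by slc13a2, a dicarboxylate carrier, at 17.7, slc12a10.1 at 14.6, slc2a10 at 14.4, the organic anion carrier slco2b1 at 12.5 and slc26a5 at 11. In embryos the highest were slco5a2 at 25.1 FPKM, slc2a11b at 23.6, the organic anion carrier slc22a7a at 19.4, the sodium-potassium-chloride carrier slc12a2 (ENSDARG00000104573) at 17.2 and the lactate carrier slc16a1b at 16.8. Only slc26a5 and the phosphate carrier slc34a2b led their family at both stages in TPM3(WT). slc26a5 is related to mammalian prestin, the motor protein of outer hair cells.

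Some members were confined to 1 stage at this limit. In no embryo condition did 39 of the 105 reach an FPKM of 1, and 14 reached it in no adult condition. The latter included both copies of slc12a5, the neuronal potassium-chloride carrier, slc22a17, the glucose carrier slc2a1a, slco5a1 and slco5a2. slc2a9l1, named for the urate and sugar carrier slc2a9, stood at 0.501 FPKM in adult TPM3(WT) and was listed at 0 in all 4 embryo libraries. slco1f1 and slco1f4 were likewise listed at 0 in every embryo library. Just inside the limit lay slc5a11 at a highest FPKM of 1.04 and slco4a1 at 1.19, and just outside lay slc2a6 at 0.922 and the gene named SLC26A6 (1 of many) at 0.879. The ionocyte carrier slc12a10.2, at most 0.796, and the anion exchanger slc26a4, at most 0.651 in adult TPM3(WT), did not pass.

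Most carriers that lay apart in the adult mutants were higher than in the controls. In adult TPM3(E151A) against TPM3(WT) 84 members were compared, of which 20 were 2-fold or more higher and 8 lower, where 9.9% of all 16865 genes compared were higher and 19.2% lower. These are 23.8% and 9.52% of the members. In adult TPM3(E151G) against TPM3(WT) 46 of 89 members were higher and 9 lower, or 51.7% and 10.1%, beside 17.4% higher and 25.5% lower of all 16572 genes. The median log2 ratio of the members was 0.32 in TPM3(E151A) and 1.03 in TPM3(E151G), where the median of all genes was −0.22 and −0.14. A carrier that reached the FPKM limit only in the mutant had to lie above the control. Among the 65 members at the limit in both TPM3(WT) and TPM3(E151G), 35 were 2-fold or more higher and 6 lower. The corresponding counts for TPM3(E151A) were 12 higher and 7 lower of 66. All genes were not counted under this stricter filter, so these counts have no all-gene share beside them.

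The mutants also differed from each other. In adult TPM3(E151G) against TPM3(E151A) 37 of 86 members were 2-fold or more higher and 3 lower, or 43.0% and 3.49%, beside 10.1% higher and 9.88% lower of all genes. The 3 lower members, slc2a3b, slc16a8 and slc16a9b, were each below 1 FPKM in TPM3(E151G). Levels ordered as TPM3(WT) below TPM3(E151A) below TPM3(E151G) were found for 54 of 91 members with an adult FPKM of at least 1, or 59.3%, against 25.4% of 17547 genes. The reverse order held for 13 members, or 14.3%, against 29.4% of all genes. Both orders were counted on FPKM as deposited, whose sums over all genes also rise from TPM3(WT) to TPM3(E151A) to TPM3(E151G). They were not recounted after rescaling. These adult comparisons share their control or mutant column and are not independent of each other.

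Scaling mattered for the size of the TPM3(E151G) differences. With each column scaled to the same FPKM sum the all-gene median moved by −0.78 for TPM3(E151G) against TPM3(WT) and by −0.72 against TPM3(E151A). The split of members 2-fold or more apart then became 27 higher and 19 lower in place of 46 and 9, so that 58.7% and not 83.6% of them were higher. For TPM3(E151G) against TPM3(E151A) it became 13 higher and 6 lower, or 68.4% higher in place of 92.5%. Relative to the all-gene median the members still lay higher, at a median of 0.44 against −0.93 for TPM3(E151G) against TPM3(WT). With equal sums 10 of 89 members changed sign for TPM3(E151G) against TPM3(WT) and 25 of 86 against TPM3(E151A). No member 2-fold or more apart in an adult comparison did so under either rescaling. That outcome was fixed in advance, as both rescalings move a ratio by less than 2-fold.

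**Figure D1:**
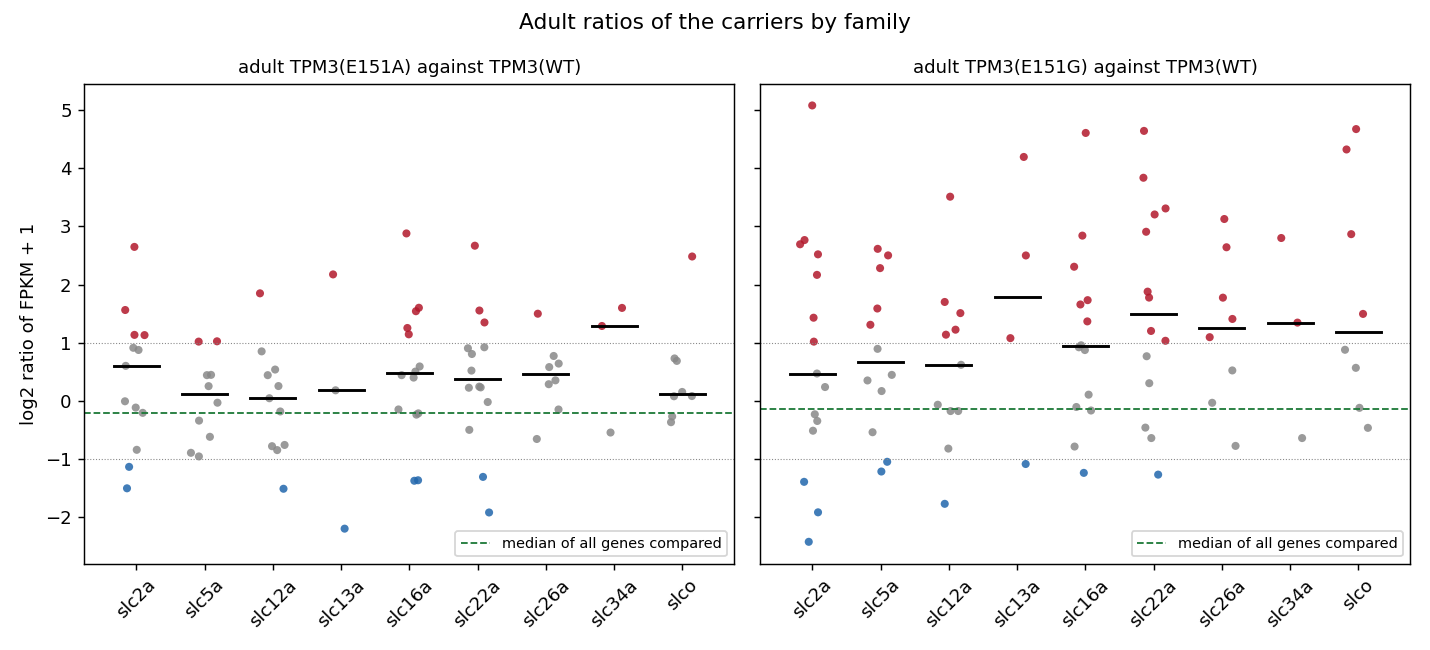
Log2 ratio of FPKM + 1 of each member (points) by family for adult TPM3(E151A) and TPM3(E151G) against TPM3(WT), with the family median (black bar), the all-gene median (dashed line, −0.22 and −0.14) and the 2-fold limits (dotted lines). Red points are 2-fold or more higher and blue points lower: 20 and 8 members in TPM3(E151A), 46 and 9 in TPM3(E151G).

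Every family had members 2-fold or more higher in TPM3(E151G), where 17.4% of all genes were higher and 25.5% lower. Among the organic ion carriers of SLC22, 9 of 14 were higher and 1 lower, with a median log2 ratio of 1.49. In SLC26 5 of 8 were higher with a median of 1.25, in SLCO 4 of 8 with a median of 1.19, and in SLC13 3 of 4. SLC16 had 6 of 14 higher and 1 lower. SLC5 had 5 of 12 higher and 2 lower, SLC12 5 of 11 and 1, and SLC34 2 of 3. The sugar carriers of SLC2 were the most divided, with 7 of 15 higher and 3 lower. With equal FPKM sums SLC12 had 1 member higher and 3 lower, SLC5 3 and 3, SLC2 5 and 4, SLC16 3 and 2, SLC22 7 and 3, SLC26 2 and 1, SLCO 3 and 1, SLC13 2 and 1 and SLC34 1 and 1. The SLC12 median then turned from 0.62 to −0.27 and that of SLC2 came to 0.06, while the medians of the other 7 families kept their sign. The all-gene median at that scaling was −0.93, below every family median. The shares of all genes past 2-fold given above are for FPKM as deposited and were not counted with equal sums. In TPM3(E151A) the family medians lay between 0.04 and 1.29.

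Large differences were found among the organic ion carriers. slc22a2, whose mammalian relative OCT2 takes organic cations into kidney tubule cells, stood at 4.40, 33.4 and 134 FPKM in TPM3(WT), TPM3(E151A) and TPM3(E151G), with log2 ratios of 2.67 and 4.65 against the control. slco1f2, a fish member of the organic anion polypeptides, stood at 1.13, 10.9 and 53.5 FPKM in the same order. Both were stepwise, low in the control and highest in TPM3(E151G). slco1f1 was at 0.496 and 1.48 FPKM in TPM3(WT) and TPM3(E151A) and at 29.0 in TPM3(E151G), the largest difference between the mutants at a log2 ratio of 3.60. Its neighbour slco1f4 was at 3.31, 5.93 and 30.5 FPKM. For both of these the larger step lay between the mutants.

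Further SLC22 members were highest in TPM3(E151G) too. slc22a4, which in human carries ergothioneine, was at 3.31, 4.03 and 31.4 FPKM in TPM3(WT), TPM3(E151A) and TPM3(E151G). slc22a6l, named for the para-aminohippurate carrier slc22a6, was at 5.81, 11.9 and 61.9 FPKM. slc22a21, next to slc22a4 on chromosome 21, was at 1.61, 2.06 and 8.61 FPKM. Each of these had its larger step between the mutants, with log2 ratios of 2.69, 2.29 and 1.65 there. The prostaglandin carrier slco2a1 was at 8.32, 9.35 and 25.3 FPKM, while slco2b1 lay closer together at 12.5, 13.3 and 19.0 and the thyroxine carrier slco1c1 at 2.94, 2.04 and 2.61.

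Tandem copies differed in direction. The slc22a7b copies, related to the mammalian organic anion carrier OAT2, lie side by side on chromosome 17 between 21944635 and 21990832 (GRCz11, as the tables give the locus). slc22a7b.1 stood at 2.01, 6.67 and 28.9 FPKM and slc22a7b.2 at 0.932, 4.67 and 26.6 FPKM in TPM3(WT), TPM3(E151A) and TPM3(E151G). In contrast slc22a7b.3 stood at 7.49, 1.24 and 4.43 FPKM, so it led the SLC22 family in the controls and was lowest in TPM3(E151A). The copies are alike in sequence and shared reads can be split between them, so their single levels are uncertain. In the same way slco1f2 and slco1f3 share 1 locus line on chromosome 4, where slco1f3 was at 1.77, 1.30 and 1.01 FPKM.

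Sodium-coupled sugar and monocarboxylate carriers followed the organic ion carriers. slc5a2, the SGLT2 of the early proximal tubule, stood at 5.52, 12.2 and 39.0 FPKM in TPM3(WT), TPM3(E151A) and TPM3(E151G). slc5a12, a sodium-coupled lactate carrier of the tubule, stood at 4.95, 11.1 and 32.7 FPKM, and slc5a1, the SGLT1 of gut and kidney, at 2.98, 4.42 and 18.4. All were highest in TPM3(E151G). slc5a8l was near level in TPM3(WT) and TPM3(E151A), at 6.14 and 5.97 FPKM, and at 20.5 in TPM3(E151G). In the opposite direction slc5a5, the iodide carrier of the thyroid, was at 1.47, 0.604 and 0.0602 FPKM and the vitamin carrier slc5a6b at 3.54, 1.43 and 1.19.

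Facilitative sugar carriers split by gene. slc2a9l1 showed the largest ratio of all members against TPM3(WT), from 0.501 FPKM to 8.41 in TPM3(E151A) and 49.9 in TPM3(E151G), a log2 ratio of 5.08 in the latter. slc2a12, an insulin-responsive carrier of human muscle and fat, stood at 3.41, 8.67 and 27.5 FPKM, and slc2a2, the glucose carrier of liver, kidney and pancreas, at 3.12, 5.25 and 17.5. The slc2a2 locus line spans 339943 bases and lists 9 genes, so its level may include fragments of neighbours. slc2a11a stood at 1.20, 3.81 and 14.0 FPKM and slc2a11l at 0.512, 3.46 and 7.67.

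Other SLC2 members were highest in the controls. slc2a10 stood at 14.4, 5.99 and 3.06 FPKM and slc2a15b at 9.80, 2.80 and 1.00 in TPM3(WT), TPM3(E151A) and TPM3(E151G). slc2a8, an intracellular sugar carrier, was at 2.92, 1.18 and 0.487 FPKM. These 3 were stepwise lower across the genotypes. The widespread glucose carrier slc2a1b was near level at 2.72, 2.22 and 2.17 FPKM, and slc2a1a and slc2a3a were at or below 1.06 FPKM in every adult condition. slc2a4, the main insulin-responsive carrier of mammalian muscle, was not among the names matched. SLC2A4RG, which the rule takes by its name, codes for a DNA-binding regulator and not for a carrier, and lay at 1.05, 1.03 and 1.41 FPKM.

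Carriers of sulfate, phosphate and chloride of the tubule were graded as well. slc13a1, the sodium-sulfate carrier of the proximal tubule, stood at 3.48, 19.2 and 81.2 FPKM in TPM3(WT), TPM3(E151A) and TPM3(E151G). slc26a1, a sulfate exchanger of the opposite membrane, stood at 3.54, 11.8 and 27.3 FPKM. slc34a1a, the renal sodium-phosphate carrier, stood at 0.409, 3.27 and 8.83 FPKM. Each lay lowest in the controls, with log2 ratios between 2.64 and 4.20 in TPM3(E151G). slc12a3, the thiazide-sensitive sodium-chloride carrier of the distal tubule, stood at 4.93, 20.3 and 66.6 FPKM.

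Further ion carriers reached the 2-fold limit in TPM3(E151G) and not in TPM3(E151A). The dicarboxylate carrier slc13a3 stood at 4.11, 4.78 and 27.9 FPKM in TPM3(WT), TPM3(E151A) and TPM3(E151G), and slc26a6l, an anion exchanger, at 2.17, 4.40 and 26.7. slc26a5 stood at 11, 16.9 and 39.9 FPKM. slc12a1, the loop diuretic-sensitive carrier, was at 1.75, 2.74 and 5.06 FPKM. slc13a2 was the exception within SLC13, at 17.7, 3.06 and 7.78 FPKM, highest in the controls. The tandem chloride carriers on chromosome 7 diverged too, with slc12a10.1 at 14.6, 4.46 and 3.56 FPKM and its neighbour slc12a10.3 at 1.93, 3.25 and 8.53. Their reads may be split between the copies.

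Lactate carriers, those with the best known role in muscle, differed in direction. slc16a3 stood at 102, 38.9 and 42.5 FPKM in TPM3(WT), TPM3(E151A) and TPM3(E151G), a log2 ratio of −1.37 and −1.24. slc16a1b was lower as well, at 6.17, 1.76 and 3.15 FPKM, whereas slc16a1a stood at 10.8, 14.6 and 38.3. The summed FPKM of the family was therefore led by slc16a3 in the controls and by slc16a9a in both mutants. slc16a9a, whose human relative exports carnitine, stood at 5.93, 50.0 and 168 FPKM, the highest level any member reached in any condition. slc16a12b, whose human relative carries creatine, stood at 8.10, 11.3 and 27.7 FPKM. slc16a4 was at 1.41, 4.73 and 16.3 FPKM and slc16a6b at 2.76, 4.65 and 17.6.

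A few carriers were highest in TPM3(E151A). slc16a9b stood at 0.784, 2.94 and 0.563 FPKM in TPM3(WT), TPM3(E151A) and TPM3(E151G). slc16a8, a lactate carrier of the pigment epithelium in mammals, stood at 0.150, 2.49 and 0.328 FPKM, and the glucose carrier slc2a3b at 1.42, 3.55 and 0.692. SLC16A7 (ENSDARG00000098258) was at 0.292, 2.76 and 1.503 FPKM. The separate entry slc16a7 (ENSDARG00000021573) was near level at 1.84, 1.56 and 1.64, highest in TPM3(WT). The testis marker list was also highest in TPM3(E151A), at 77.6, 280 and 13.1 summed FPKM. slc16a9b and slc2a3b shared its order of genotypes, while slc16a8 and SLC16A7 were lowest in TPM3(WT). Of its 10 markers 8 were 2-fold or more above TPM3(WT) in TPM3(E151A), and 10 were as far below TPM3(E151A) in TPM3(E151G). Erythrocyte markers were highest in TPM3(E151A) as well, at 755, 2852 and 1320 summed FPKM. So were otic markers at 25.3, 50.5 and 50.0 and retina markers at 1.68, 1.83 and 1.72. The erythrocyte, otic and retina sums were lowest in TPM3(WT), as slc16a8 and SLC16A7 were. Whether germ-line or other tissue had a part in these carriers' levels was not tested.

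**Figure D2:**
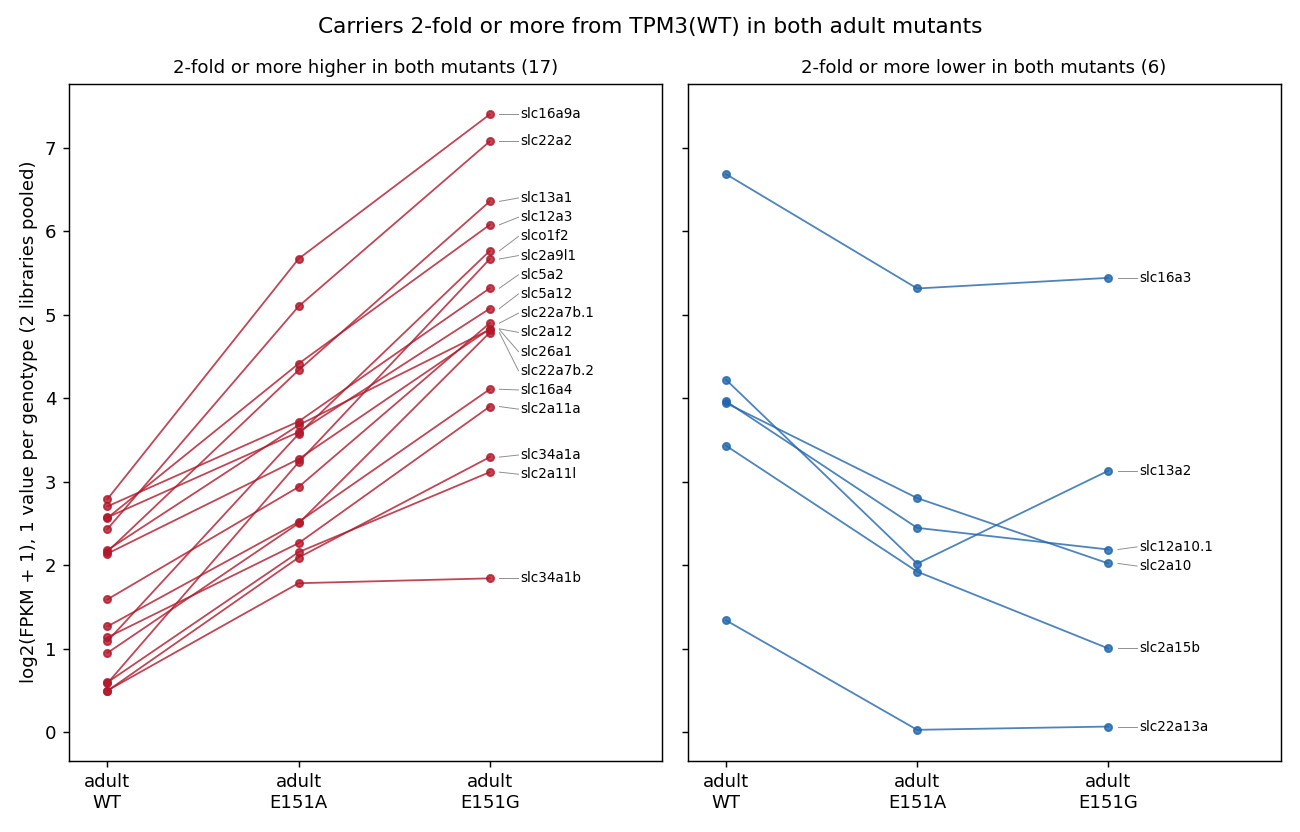
Log2(FPKM + 1) in adult muscle of TPM3(WT), TPM3(E151A) and TPM3(E151G), 1 value per genotype, for the 17 members 2-fold or more higher (left) and the 6 lower (right) than TPM3(WT) in both mutants. On the left 17 of 17 lines climb from TPM3(E151A) to TPM3(E151G), slc34a1b by 0.06, while on the right slc16a3, slc13a2 and slc22a13a lie slightly or clearly higher in TPM3(E151G) than in TPM3(E151A).

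Members past 2-fold in both adult mutants numbered 17 higher and 6 lower of the 82 compared in both, and 0 lay in opposite directions. Of all 15890 genes 4.15% were higher in both and 17.1% lower, against 20.7% and 7.32% of the members. Both comparisons use the same TPM3(WT) column. With equal FPKM sums 14 of the 17 and 6 of the 6 kept their place. The 17 were slc12a3, slc13a1, slc16a4, slc16a9a, slc22a2, slc22a7b.1, slc22a7b.2, slc26a1, slc2a11a, slc2a11l, slc2a12, slc2a9l1, slc34a1a, slc34a1b, slc5a12, slc5a2 and slco1f2. The 6 were slc12a10.1, slc13a2, slc16a3, slc22a13a, slc2a10 and slc2a15b.

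Kidney markers were present in all adult columns and were mostly higher where the carriers were. cdh17, a cadherin of the zebrafish pronephric duct, stood at 34.1, 47.3 and 70.7 FPKM in TPM3(WT), TPM3(E151A) and TPM3(E151G), and the transcription factor pax2a at 5.71, 9.63 and 18.9. slc20a1a, a phosphate carrier of another family, stood at 19.9, 59.4 and 176 FPKM. Of the 14 markers in the list 9 of 13 compared were 2-fold or more higher in TPM3(E151G) and 2 of 14 in TPM3(E151A), with median log2 ratios of 1.17 and 0.64. In each mutant 1 marker, dab2, was 2-fold or more lower, at 173, 38.5 and 32.6 FPKM in TPM3(WT), TPM3(E151A) and TPM3(E151G). None of the 14 was at 0 in an adult column, and the podocyte gene nphs1 was level at 1.01, 0.832 and 0.777 FPKM. Summed FPKM of the list was 273, 217 and 404 in TPM3(WT), TPM3(E151A) and TPM3(E151G), with dab2, at 173 in the controls, taking most of the control sum.

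As a list the kidney markers lay higher than the controls like the carriers, with a median of 1.17 beside 1.03 in TPM3(E151G). This was not particular to kidney. Liver, glia, erythrocyte, otic and endothelium markers had medians of 2.30, 1.53, 1.09, 0.92 and 0.90 in TPM3(E151G). Neuron, ionocyte and muscle markers had 0.85, 0.84 and 0.53. Intestine, skin, testis and oocyte markers had −0.84, −1.14, −2.16 and −2.57. The marker lists were counted on FPKM as deposited and were not recounted after rescaling. Equal FPKM sums moved the all-gene median by −0.78 for TPM3(E151G) against TPM3(WT). Among single kidney markers the log2 ratio in TPM3(E151G) was 1.03 for cdh17, 1.57 for pax2a, 1.93 for lrp2a and 3.09 for slc20a1a. It was only 0.33 for cubn and −2.37 for dab2. Liver markers summed to 4.07, 41.1 and 60.5 FPKM and intestine markers to 520, 211 and 62.4 in TPM3(WT), TPM3(E151A) and TPM3(E151G). Oocyte markers, which had the same direction as the 6 lower carriers, were 2-fold or more lower in 9 of 10 genes in TPM3(E151A) and 10 of 10 in TPM3(E151G). The part of kidney, gut, liver or ovary tissue in the carriers' levels was not tested.

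**Figure D3:**
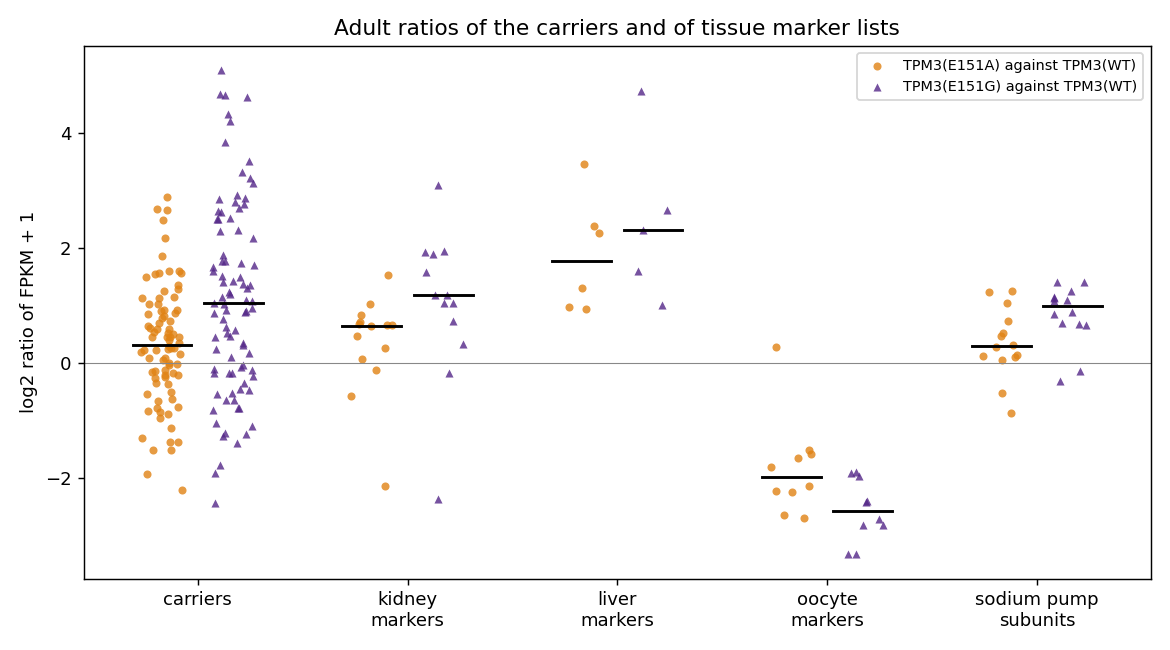
Log2 ratio of FPKM + 1 against adult TPM3(WT) for the carriers, 3 tissue marker lists and the sodium pump subunits (points are genes, black bars medians), in TPM3(E151A) (circles) and TPM3(E151G) (triangles). The carriers' medians are 0.32 and 1.03, and those of the sodium pump subunits, the nearest drawn, are 0.29 and 0.98. Kidney markers lie at 0.64 and 1.17, liver markers at 1.77 and 2.30, and oocyte markers at −1.98 and −2.57. Other lists with medians above 0, such as glia markers at 0.60 and 1.53, are not drawn.

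Genes that work with these carriers differed by group. They were counted on FPKM as deposited and not recounted with equal FPKM sums, which moved the all-gene median by −0.78 for TPM3(E151G). Counts with ratios near the 2-fold limit there, as for the sodium pump, depend on that choice. The sodium pump, which maintains the gradient that SLC5, SLC13 and SLC34 carriers use, had 7 of 14 subunits 2-fold or more higher in TPM3(E151G) and 0 lower, with a median log2 ratio of 0.98. Its beta subunit atp1b1a stood at 290.5, 402 and 622 FPKM in the 3 genotypes. Of 4 carrier scaffolds 1 was 2-fold or more higher and 1 lower in each mutant. The higher was pdzk1, which holds carriers at the tubule membrane and also counts among the kidney markers, at 5.63, 12.5 and 23.5 FPKM. The lower was ezrb at 42.8, 17.4 and 16.2. The partners of lactate and glucose carriers had 5 of 13 higher and 1 lower in each mutant, with the lactate carrier chaperone bsg at 175, 118 and 140 FPKM, hexokinase hk2 at 27.3, 9.29 and 9.71, and the pyruvate dehydrogenase kinase pdk4 at 6.81, 17.3 and 49.0. hk2 thus lay highest in the controls, as slc16a3 did. The list of kinases and adaptors of chloride carriers had 1 higher and 1 lower of 10 in TPM3(E151A) and 2 higher and 1 lower in TPM3(E151G). Its medians were −0.16 and 0.16. In TPM3(E151A) the higher and the lower were the creatine kinases ckba and ckbb, at log2 ratios of 2.73 and −1.89. In TPM3(E151G) the higher were ckba at 1.39 and the kinase wnk1b at 2.22, and the lower was ckbb at −1.91. The other listed kinases and adaptors stayed within 2-fold in both mutants. wnk1b stood at 5.49, 9.34 and 29.2 FPKM.

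Several carriers occur as a and b copies from the fish genome duplication, and in some pairs the leading copy depended on the stage. Of 17 pairs 8 changed their leader between any of the 7 conditions, and some of these, such as slc2a11, did so among genotypes of the same stage. slc16a9a made up 88.3% of its pair's FPKM in the adult controls and 99.7% in adult TPM3(E151G), against 19.5% in embryo TPM3(WT). slc16a1a made up 63.7%, 89.3% and 92.4% in adult TPM3(WT), TPM3(E151A) and TPM3(E151G), and 11.9% to 29.5% in embryos. The reverse held for slc16a6, whose a copy, a ketone body exporter of the zebrafish liver, made up 3.77% to 8.14% in adults and 70.8% to 85.6% in embryos. A glucose carrier pair did likewise, with slc2a3a at 98.0% of its pair in embryo TPM3(WT) and 25.6% in adult TPM3(WT).

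**Figure D4:**
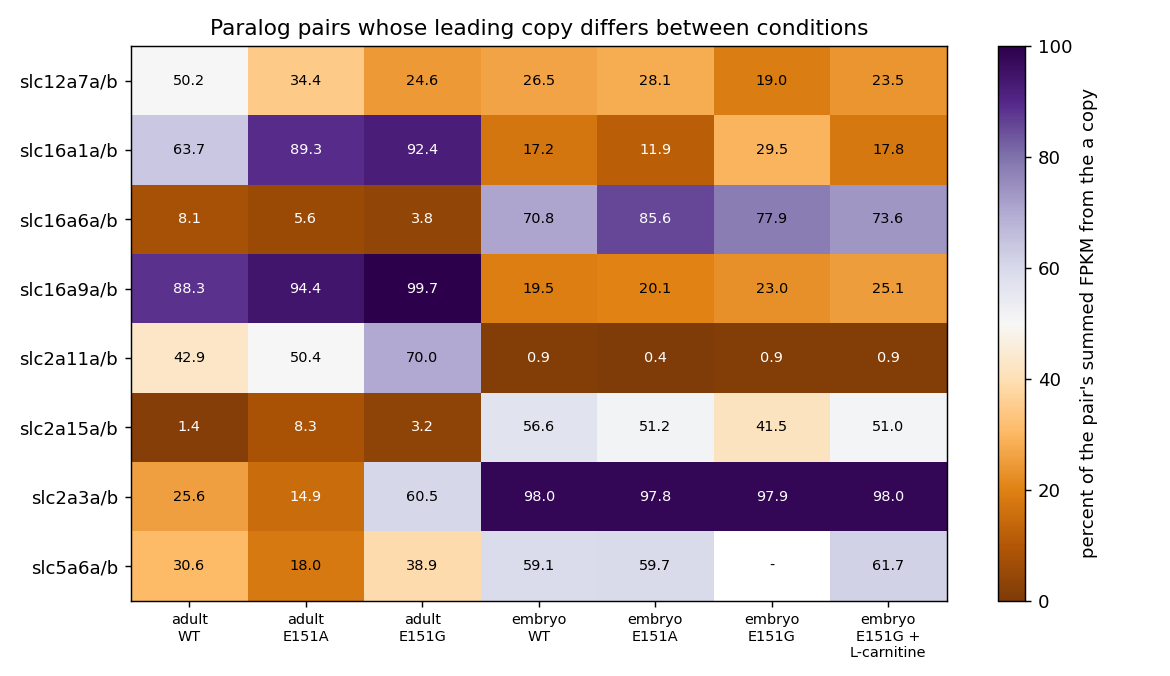
Share of a pair's summed FPKM that came from the a copy, in percent, for the 8 pairs whose leading copy differs between the 7 conditions (a dash marks a pair with neither copy at 1 FPKM). The slc16a1 and slc16a9 pairs are led by the a copy in all 3 adult columns and by the b copy in all 4 embryo columns, and the slc16a6 pair the other way round.

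Within adults some pairs differed by genotype too. slc2a11a made up 42.9%, 50.4% and 70.0% of its pair in TPM3(WT), TPM3(E151A) and TPM3(E151G), and slc2a3a 25.6%, 14.9% and 60.5%. The potassium-chloride carrier slc12a7a went the other way, at 50.2%, 34.4% and 24.6%. These are shares of 1 pooled value per genotype.

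In embryos few members lay 2-fold apart. In embryo TPM3(E151A) against TPM3(WT) 0 of 65 members were 2-fold or more higher and 1 lower, beside 0.99% higher and 0.996% lower of all 17577 genes. In embryo TPM3(E151G) against TPM3(WT) 0 of 64 were higher and 3 lower, or 4.69%, beside 0.637% higher and 1.79% lower of all genes. A carrier that reached the FPKM limit only in TPM3(WT) had to lie below it. Among members at the limit in both libraries, 1 of 54 was lower in TPM3(E151G) and 0 of 58 in TPM3(E151A). All genes were not counted under that filter. For TPM3(E151G) the count of 3 became 10 lower with equal FPKM sums, 9 apart with a pseudocount of 0.1 and 0 with an FPKM minimum of 5. The members' median log2 ratio was −0.22 and −0.23, where the all-gene median was 0.02 and 0.04, and 48 of 65 and 45 of 64 members lay at or below 0. The tilt was thus toward lower levels in both mutants, and shallow. The adult tilt was toward higher levels but over a different set of members. Only 46 members for TPM3(E151A) and 49 for TPM3(E151G) were compared at both stages. Both comparisons share the TPM3(WT) library.

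Among the members lower in TPM3(E151G) embryos were carriers of the nervous system. slc22a17, a lipocalin receptor in mammals, stood at 4.47, 3.46, 1.29 and 3.84 FPKM in TPM3(WT), TPM3(E151A), untreated TPM3(E151G) and TPM3(E151G) with L-carnitine. Its log2 ratio in TPM3(E151G) against TPM3(WT) was −1.26. The potassium-chloride carriers of neurons came just short of the limit, slc12a5a at 2.14, 1.28, 0.611 and 1.93 FPKM and slc12a5b at 2.84, 1.84, 0.974 and 3.17. In these 3 genes the untreated TPM3(E151G) library was lowest and TPM3(E151A) lay between it and TPM3(WT).

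In other members the untreated TPM3(E151G) library was lowest as well. slco3a1 stood at 2.41, 2.04, 1.223 and 2.76 FPKM and slc2a1b at 9.20, 8.44, 4.70 and 8.49 in embryo TPM3(WT), TPM3(E151A), untreated TPM3(E151G) and treated TPM3(E151G). Further members with their lowest embryo level in untreated TPM3(E151G) were slc16a1b at 16.8, 22.5, 10.0 and 16.4 FPKM, slc12a2 (ENSDARG00000104573) at 17.2, 14.8, 10.9 and 14.3, and the vitamin carrier slc5a6a at 1.29, 1.08, 0.295 and 1.75. slc26a2, a sulfate carrier of cartilage, was low in both mutants, at 5.24, 2.86, 2.81 and 5.41 FPKM.

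General neuron markers tilted slightly higher in TPM3(E151G) embryos against TPM3(WT), with 6 of 9 above 0. Of the 9 markers 0 were 2-fold or more apart there, with a median log2 ratio of 0.24. Summed FPKM of the list was 1351, 1259, 1433 and 1504 in TPM3(WT), TPM3(E151A), untreated TPM3(E151G) and TPM3(E151G) with L-carnitine. elavl3 was also lowest in untreated TPM3(E151G) but highest in TPM3(E151A), at 338, 410, 226 and 379 FPKM. In both embryo mutants the ratios also went with gene length. Over all genes that are alone at their locus line the median log2 ratio in TPM3(E151G) against TPM3(WT) was 0.20 for loci of 10 kb or less, 0.04 up to 30 kb, −0.14 up to 100 kb and −0.24 above 100 kb. The locus lines of slc12a5a, slc12a5b, slc22a17, slc5a6a and slco3a1 all exceed 100 kb, but those of the first 4 list several genes, so the line is not the length of the gene. The 10 members with lines above 100 kb, shared or not, had a median of −0.58, where all genes with such lines had −0.08. The 2 members alone on such a line had a median of −0.50. For TPM3(E151A) against TPM3(WT) genes alone at their line had medians of 0.10, 0.04, −0.06 and −0.17, from short to long. In TPM3(E151G) with L-carnitine against TPM3(WT) the medians of the 4 length classes lay between −0.01 and 0.03. The part of gene length in the carriers' levels was not tested.

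**Figure D5:**
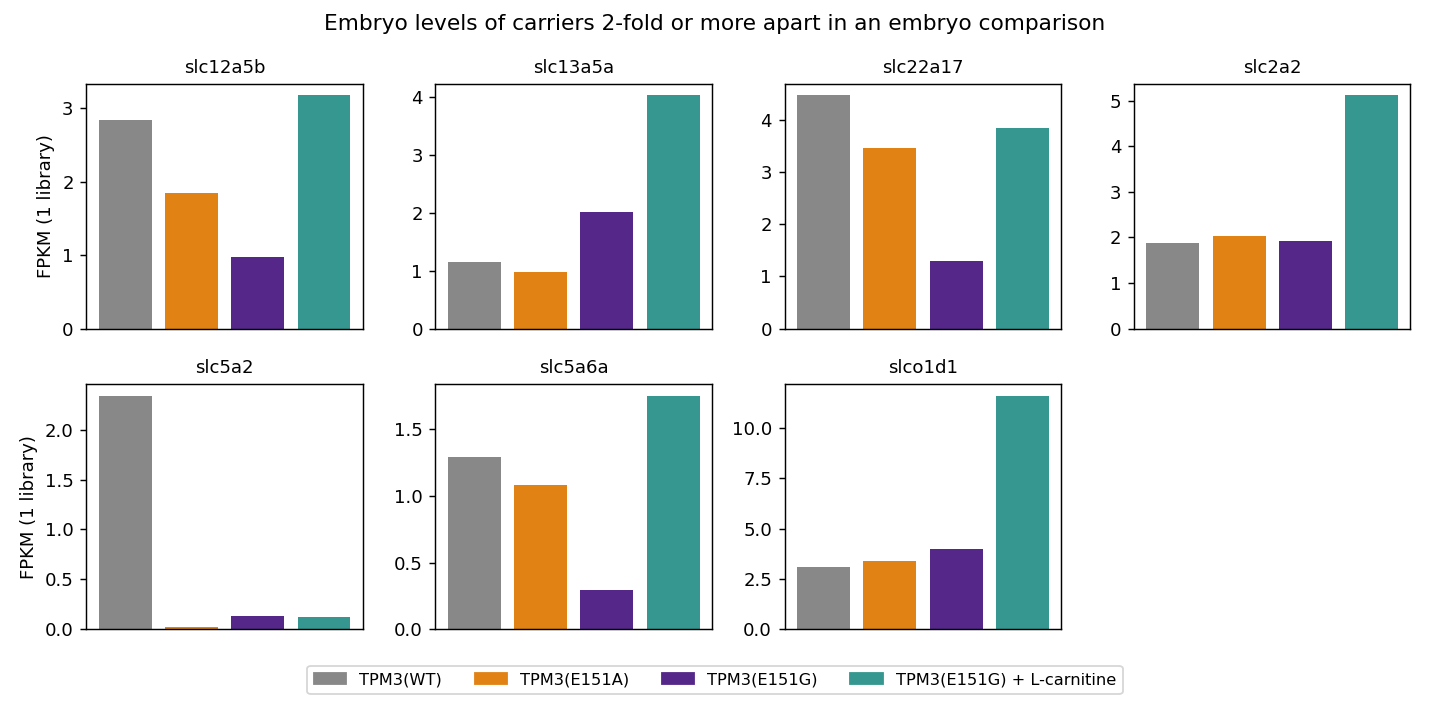
FPKM in the 4 embryo libraries (1 bar per library, each panel with its own axis from 0) of 7 members 2-fold or more apart in an embryo comparison. slc12a5b, slc22a17 and slc5a6a are lowest in untreated TPM3(E151G), slc13a5a, slc2a2 and slco1d1 are highest with L-carnitine, and slc5a2 is above 1 FPKM in TPM3(WT) alone.

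With L-carnitine the carriers lay higher than in untreated TPM3(E151G) embryos. Of 63 members 5 were 2-fold or more higher and 0 lower, or 7.94%, beside 2.55% higher and 0.199% lower of all 17585 genes. The 5 were slco1d1, slc5a6a, slc22a17, slc12a5b and slc2a2, and 44 of 63 members lay above 0 with a median log2 ratio of 0.20 against −0.04 for all genes. Of the 5, slc5a6a and slc12a5b were below 1 FPKM in untreated TPM3(E151G). Ratios went with gene length here too. Genes alone at their locus line had medians of −0.17, −0.05, 0.11 and 0.23 in the same length classes, short to long. The 10 members with lines above 100 kb, shared or not, had a median of 0.81 and held 4 of the 5. The part of gene length was not tested. Against TPM3(WT) 3 of 65 members were higher with L-carnitine and 1 lower, beside 1.97% higher and 0.384% lower of all 17731 genes. The untreated library is the reference of the first comparison, so its low values enter both it and the comparison of untreated TPM3(E151G) with TPM3(WT). The comparison of treated embryos with TPM3(WT) does not use that library.

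Carriers above the TPM3(WT) level with L-carnitine were of another kind. slco1d1, a fish organic anion polypeptide, stood at 3.10, 3.38, 3.98 and 11.6 FPKM in TPM3(WT), TPM3(E151A), untreated TPM3(E151G) and TPM3(E151G) with L-carnitine. slc2a2 stood at 1.87, 2.03, 1.93 and 5.12 FPKM and slc13a5a, the citrate carrier of liver in mammals, at 1.15, 0.971, 2.02 and 4.03. For these 3 the treated library was highest, with log2 ratios of 1.62, 1.09 and 1.23 against TPM3(WT). For slc13a5a the untreated TPM3(E151G) library was also above TPM3(WT), and the ratio of treated to untreated was 0.74, short of 2-fold. slc22a2 and slco2a1 were also highest there, at 7.13 and 3.14 FPKM against 3.60 and 1.69 in TPM3(WT).

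Liver markers were higher in the same library. In the treated embryos 13 of 13 compared were 2-fold or more higher than in untreated TPM3(E151G), with a median log2 ratio of 1.91, and their summed FPKM was 574, 656, 799 and 2663 in TPM3(WT), TPM3(E151A), untreated TPM3(E151G) and TPM3(E151G) with L-carnitine. fabp10a, the liver fatty acid-binding protein, stood at 58.5, 61.1, 98.6 and 388 FPKM. Of the kidney markers 0 of 8 were apart, with sums between 65.1 and 70.1 FPKM in all 4 libraries. The part of liver tissue or of embryo age in the carriers' levels was not tested, and with 1 library the treatment and the library cannot be told apart.

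Carriers tied to carnitine in other species were near level between treated and untreated embryos. slc16a9a stood at 1.501, 1.34, 1.75 and 1.56 FPKM and slc16a9b at 6.20, 5.34, 5.85 and 4.67 in TPM3(WT), TPM3(E151A), untreated TPM3(E151G) and treated TPM3(E151G). slc22a16, a carnitine carrier of human testis, stood at 1.78, 3.13, 1.93 and 1.86 FPKM. Their log2 ratios between treated and untreated TPM3(E151G) lay between −0.27 and −0.03. These carriers were grouped after their values were seen.

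A single gene was 2-fold or more apart in opposite directions at the stages. slc5a2 stood at 2.34 FPKM in embryo TPM3(WT) and at 0.0268, 0.134 and 0.125 in TPM3(E151A), untreated and treated TPM3(E151G). It was the only member 2-fold or more lower in TPM3(E151A) embryos, and the only one lower with L-carnitine than in TPM3(WT). A related sugar carrier, slc5a9, had the same shape at lower levels, at 0.540, 0.0482, 0.0938 and 0.0186 FPKM. In both genes the TPM3(WT) embryo library was high and the other 3 low, so each of these differences rests on that library. Summed kidney markers were near level, at 69.7 FPKM in TPM3(WT) and between 65.1 and 70.1 in the other 3. Singly they tilted lower against TPM3(WT), with 4, 3 and 3 of 10 above 0 in TPM3(E151A), untreated and treated TPM3(E151G). The median log2 ratios were −0.05, −0.19 and −0.22. The part of kidney tissue in the slc5a2 level was not tested.

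Many carriers that lay far apart in adults were level in embryos. slc22a2 stood at 3.60, 3.80 and 4.25 FPKM and slc26a1 at 3.44, 3.01 and 3.26 in embryo TPM3(WT), TPM3(E151A) and TPM3(E151G). slc16a3 stood at 11.2, 11.7 and 12.4 FPKM and slc26a5 at 7.96, 7.10 and 7.94. Others of the adult group could not be compared, since slc12a3, slc13a1, slc34a1a, slc5a12 and slco1f2 stayed below 1 FPKM in every embryo library. The stages were not compared by a test.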

How the data were processed

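RNA sequencing of 10 zebrafish samples, grouped by their labels, was analysed. After trimming (Trimmomatic 0.36) and HISAT2 alignment to GRCz11, the authors deposited 1 FPKM per gene and condition for 7 comparisons of 32265 genes, with the libraries of each adult genotype already combined. Bases were called with bcl2fastq 2.20. The submitters' notes also name featureCounts 1.6.3 with no role given, and the methods give FPKM as an outcome of the alignment step without naming a tool that computed it. The authors' own ratios, p-values and q-values stand beside the FPKM and were not used. The tables hold no counts, so the depth is unknown and no interval is given.

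FPKM of at least 1 in either condition and a pseudocount of 1 were used for log2 ratios, computed in Python with pandas 2.3.3 and numpy 2.4.6. The code was tested on simulated data with changes planted only in genes above the level of most members. That test does not cover calls at low levels. With 1 value per condition no test was possible, and counts past 2-fold and medians are set beside those of all genes. Per family the highest member in each control, every member 2-fold apart in an embryo comparison, up to 6 per direction in each adult comparison, textbook carriers and pairs of copies that change leader were named, except for 1 member that is not reported here, and other names were picked with their values in view. The members and lists were chosen with earlier results of these data known. Alternatives were other scalings, FPKM minimums, pseudocounts and fold limits. Of the 121 gene IDs 116 were in a table of gene names, and for 84 the symbol there was the same apart from case. slc22a6l had the symbol SLC22A8 there. slco5a1 and slco5a2 had the symbols slco5a1a and slco5a1b and were not counted as a pair of copies. Sequence tables for these genes were not used here.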

Additional observations from a re-analysis of the deposited data

Results flagged for a closer look

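A sugar carrier of the kidney tubule, slc5a2, had opposite directions at the stages under the same genotype contrasts. In TPM3(E151A) against TPM3(WT) its log2 ratio was 1.02 in adults and −1.70 in embryos. In TPM3(E151G) against TPM3(WT) it was 2.61 in adults and −1.56 in embryos. It was the only member 2-fold or more apart in opposite directions at the stages, among 46 and 49 compared at both. Of all genes 36 of 13832 and 29 of 13890 were so. Smaller ratios of opposite sign were not counted. The embryo ratios rest on a level of 2.34 FPKM in a single TPM3(WT) library, and the difference between the stages was not tested. With 1 value per condition no sample could be checked against others of its group.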

How the results depend on the processing

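The depth of the libraries is unknown and low levels carry an error that these tables do not give. A mean FPKM of at least 1 over both conditions was an alternative chosen after seeing the data. That filter and median-of-ratios scaling left every count of members 2-fold apart within 1.5 times and every median within 0.25 (log2). With equal FPKM sums the median for adult TPM3(E151G) was 0.44 against TPM3(WT) and 0.19 against TPM3(E151A), the latter count was 19 in place of 40, and the embryo counts were 10 in place of 3 for TPM3(E151G) against TPM3(WT) and 8 in place of 5 for L-carnitine against untreated. A pseudocount of 0.1 gave adult TPM3(E151G) medians of 1.53 against TPM3(WT) and 1.101 against TPM3(E151A) in place of 1.03 and 0.79, and embryo counts of 2 in place of 1 for TPM3(E151A), 9 for TPM3(E151G) and 10 for L-carnitine against untreated. Without an FPKM minimum these adult medians were 0.47 and 0.37, and with a minimum of 5 they were 1.88 and 1.48. That minimum gave counts of 18 in place of 28 for adult TPM3(E151A), 0 for both embryo mutants, 2 for L-carnitine against untreated and 2 in place of 4 against TPM3(WT). A fold limit of 1.5 gave 48 for adult TPM3(E151A), and 5, 15 and 16 for embryo TPM3(E151A), TPM3(E151G) and L-carnitine against untreated. The minimum, the fold limit and the pseudocount change which genes are counted by construction, and the cause of the other changes was not tested. Of 75 ratios of named members past 2-fold 0 reversed, which none of the alternatives could bring about for ratios of that size. Under the alternatives 18 of 501 values fell short of 2-fold, 14 of them with equal FPKM sums. No paired analysis was possible because each adult genotype has 1 combined FPKM and each embryo condition 1 library, and for the same reason leaving out single libraries was not run.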
